A study of Mus musculus with 4 samples.

Results

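The ErbB receptors and their ligands are a small signalling family, and 6 of its genes were followed here: the receptors Egfr, Erbb2, Erbb3 and Erbb4 and the ligands Hbegf and Nrg1. Every probe set to which the platform annotation gives 1 of these symbols was taken, which gave 11 of the 22626 probe sets on the array that are not controls. Egfr has 5 of them, Erbb3 and Hbegf 2 each, and Erbb2 and Erbb4 1 each. None carries the symbol Nrg1, so this ligand was not analysed here.

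The tissue came from wild-type C57BL/6 mouse hearts of embryonic day 10.5 to 11.0. Atrioventricular (AV) junctions and ventricular regions were dissected apart and pooled over about 80 hearts, and 230 ng (AV junction) or 250 ng (ventricular region) of RNA was amplified before it was read on Affymetrix MOE430A arrays. Each region has 2 arrays, called 1a and 1b, and the comparison asks which genes differ at the site where the AV cushions form. No treatment or mutant allele was involved. The sources do not say that the arrays of a region come from separate pools, so the spread between them may be technical, and p-values measure only that spread. Intensities below were scaled to a trimmed mean of 500 on each array, and a positive log2 fold means a higher level in the AV junction.

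ErbB receptors are tyrosine kinases that signal as pairs once a ligand of the epidermal growth factor (EGF) family is bound. Erbb2 binds no ligand of its own and serves as a partner, and Erbb3 has little kinase activity and depends on its partner. In the embryonic heart, neuregulin from the endocardium signals to Erbb2 and Erbb4 on muscle and is needed for the trabeculae of the ventricle, Erbb3 is needed for the growth of AV cushion mesenchyme, and heparin-binding EGF (Hbegf) acting on Egfr limits the size of the valves.

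Among the members, Erbb3 was higher and Egfr lower in the AV junction. Erbb3 rose 1.76-fold there, to 462 ± 0.867 from 245 ± 65.7 (mean ± SD, n = 2 arrays each), and Egfr fell to 379 ± 2.20 from 649 ± 90.4 on its brightest probe set, a 1.62-fold difference. Folds come from the fit, which adds 50 to each intensity. Hbegf and Erbb2 did not pass the test, and Erbb4 was at background on all 4 arrays. Of the 11 member probe sets 6 had a mean intensity of at least 100 and were tested, and 2 of these 6 passed limma's test (p-values adjusted by Benjamini-Hochberg, threshold 0.05), 1 higher and 1 lower. Across the full fit 13.8% of 13403 tested probe sets passed, 7.24% higher and 6.58% lower, and with 6 probe sets no more can be read from the members' count than these 2 calls. The arrays of the regions did not overlap for 5 of the 6, but this held for 61.2% of all probe sets tested.

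**Figure D1:**
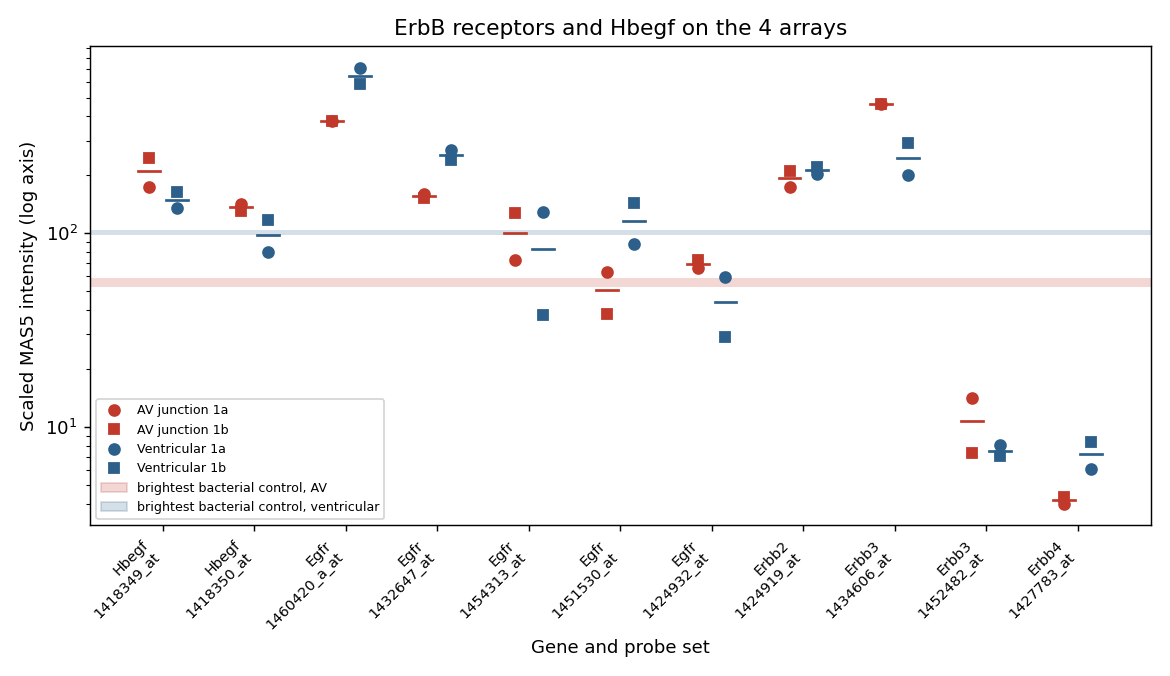
Scaled MAS5 intensity (log axis) of each member probe set on the AV junction arrays (red) and the ventricular arrays (blue), with circles for array 1a, squares for 1b, and short bars for the mean of a region. Shaded bands mark the brightest bacterial control on the AV arrays (52.6 to 58.6) and the ventricular arrays (97.9 to 104). Erbb3 1434606_at lies higher on both AV arrays, Egfr 1460420_a_at lies higher on both ventricular arrays, and Erbb4 lies under the bands.

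Hbegf, the ligand that binds Egfr and Erbb4 and is made as a membrane protein, was read by 2 probe sets designed from the same cDNA record. The brighter one, 1418349_at, read 172 and 244 on AV arrays 1a and 1b against 135 and 163 on ventricular arrays 1a and 1b. The other, 1418350_at, read 141 and 131 against 80.1 and 116. Both were higher on each AV array than on either ventricular array. Their log2 folds were close to each other, 0.36 with an SE of 0.23 and 0.34 with an SE of 0.25. Neither passed (limma, adjusted p = 0.311 and 0.395), and the 95% intervals of −0.17 to 0.90 and −0.25 to 0.93 hold both no difference and one as large as that of Erbb3. With 1 array left out the folds ran from 0.16 to 0.57 and from 0.16 to 0.52. On 1418349_at the AV arrays differed from each other by 0.40 on the log2 scale, a gap that 82.6% of tested probe sets did not exceed, against a median of 0.17. On 1418350_at 1 of the 2 ventricular arrays lay above its bacterial control.

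Other ligands of the EGF family showed no called difference. Of 9 listed, 7 had a probe set and 4 were tested. By limma 0 were higher and 0 lower, where 15.0% of all genes tested passed, and likewise 0 had an unadjusted p under 0.05. The median log2 fold of these ligands was −0.06, as was the median of all 8410 genes tested. It turned to 0.08 with quantile normalisation (−0.01 over all genes) and to 0.10 with median scaling (0.10 over all genes). On its brightest probe set Tgfa, a ligand of Egfr, read 273 and 217 on the AV arrays against 256 and 264 on the ventricular arrays. The log2 fold was −0.08 (adjusted p = 0.804), and its sign turned with quantile normalisation (0.02) and median scaling (0.08). Dimmer probe sets of Tgfa gave −0.50 and −0.23, and neither passed (adjusted p = 0.237 and 0.591). Btc, betacellulin, which binds Egfr and Erbb4, read 116 and 239 against 307 and 196, with a log2 fold of −0.43 and an SE of 0.31 (adjusted p = 0.372), and a range of −0.83 to −0.04 with 1 array left out. Arrays of the regions overlapped for both genes on their brightest probe sets. Ereg and Nrg3 were at or below the bacterial controls on all 4 arrays.

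EGF family ligands are cut from the cell surface by proteases, and genes of this step were higher in the AV junction or did not pass. Among 8 tested genes, 4 rose, 0 fell and 4 did not pass (0 lower also at an unadjusted p under 0.05), and the median log2 fold was 0.52 against −0.06 over all genes tested. The list median was 0.31 with the values as deposited. Over all 8410 genes 8.47% were higher and 6.54% lower. Adam17, the main sheddase of Hbegf, read 438 and 364 in the AV junction and 195 and 179 in the ventricular region (log2 fold 0.92, adjusted p = 0.016). Adam10, a sheddase of EGF and betacellulin, read 2978 and 2779 against 1865 and 1702 (0.68, adjusted p = 0.00741). Both proteases were higher on each AV array than on either ventricular array. Bace1, which cuts neuregulin, rose by 0.77 (adjusted p = 0.0272), and Timp3, an inhibitor of Adam17, by 1.01 (adjusted p = 0.0252). So the genes that rose include both proteases and a protease inhibitor. Adam19, a protease of neuregulin, read 329 and 537 against 345 and 292 and did not pass (0.36, adjusted p = 0.311). Adam10 passed with any 1 array left out, whereas Adam17 missed without AV array 1a or either ventricular array (adjusted p of up to 0.0848), Timp3 without either AV array or ventricular array 1b (up to 0.093) and Bace1 whichever array was left out (up to 0.115). With no floor Adam17, Bace1 and Timp3 missed (0.051, 0.0739 and 0.0758), and with eBayes without trend Adam10 and Timp3 did (0.0567 and 0.0723). Dimmer probe sets gave log2 folds of 0.12 for Adam17, −0.32 for Bace1, and 0.58 and 0.32 for Timp3, none of which passed.

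Egfr, the receptor of Hbegf, has the most probe sets, and they did not all read alike. On 1460420_a_at, the brightest, the AV arrays read 377 and 380.1 and the ventricular arrays 713 and 585. Both ventricular arrays lay above both AV arrays, and the log2 fold was −0.70 with an SE of 0.15 and a 95% interval of −1.05 to −0.35 (limma, adjusted p = 0.0238). On 1432647_at the AV arrays read 159 and 153 and the ventricular arrays 268 and 237. This probe set also did not overlap and had a log2 fold of −0.55 (SE 0.19, 95% interval −0.999 to −0.11), but did not pass (adjusted p = 0.0965). The remaining 3 probe sets of Egfr had means under 100 and were not tested. Of these, 1451530_at read 63.0 and 38.2 on the AV arrays against 88.2 and 143 on the ventricular arrays, with only 1 array of each region above its bacterial control. In the other direction 1424932_at, designed from the same record as 1451530_at, read 66.0 and 72.7 against 59.3 and 29.2, and both ventricular values lie below their controls. On 1454313_at, which shares its record with 1432647_at, the regions overlapped at 72.4 and 127 against 128 and 37.6. With no floor on intensity these 3 had log2 folds of −0.71, 0.36 and 0.24, and none passed (adjusted p = 0.252, 0.493 and 0.791). The lower level of Egfr in the AV junction therefore rests on 2 tested probe sets, of which 1 passed. That call held without ventricular array 1b (−0.83, adjusted p = 0.0482) and was lost without AV array 1a, without AV array 1b and without ventricular array 1a (−0.69, −0.70 and −0.57, adjusted p = 0.0705, 0.07 and 0.128). It was also lost with no floor (adjusted p = 0.0557) and with eBayes without trend (0.0627).

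Erbb2, the shared partner receptor, did not pass. Its probe set 1424919_at read 174 and 209 on the AV arrays against 202 and 219 on the ventricular arrays. The regions overlapped, the log2 fold was −0.11 with an SE of 0.20 (limma, adjusted p = 0.724), and the sign turned with quantile normalisation (0.01) and median scaling (0.05). The 95% interval of −0.57 to 0.34 holds differences in either direction, short of the fitted −0.70 of Egfr and 0.81 of Erbb3.

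Erbb3, the neuregulin receptor of cushion mesenchyme, was read by 1434606_at at 463 and 462 on the AV arrays against 198 and 291 on the ventricular arrays. Both AV arrays stood above both ventricular arrays. The log2 fold was 0.81 with an SE of 0.19 and a 95% interval of 0.36 to 1.26 (limma, adjusted p = 0.0334). Nearly all of the spread was on the ventricular side, where the arrays differed by 0.46 on the log2 scale, a gap that 86.4% of tested probe sets did not exceed, while the AV arrays agreed to within 0.0035. The log2 fold accordingly ran from 0.58 without ventricular array 1a to 1.04 without ventricular array 1b. The call held only without ventricular array 1b (adjusted p = 0.0357) and was lost without AV array 1a, without AV array 1b and without ventricular array 1a (0.104, 0.103 and 0.129), as it was with no floor (0.0858) and with eBayes without trend (0.0721). The second probe set of Erbb3, 1452482_at, read 14.1 and 7.37 against 8.05 and 7.04, all below the bacterial controls, and so gives no comparison.

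Erbb4, the neuregulin receptor of heart muscle, read 4.02 and 4.36 on the AV arrays against 6.03 and 8.38 on the ventricular arrays on its single probe set, 1427783_at. All 4 values lie well below the bacterial controls, so no fold is given. A probe set at background shows only that it gave no signal on these arrays.

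**Figure D2:**
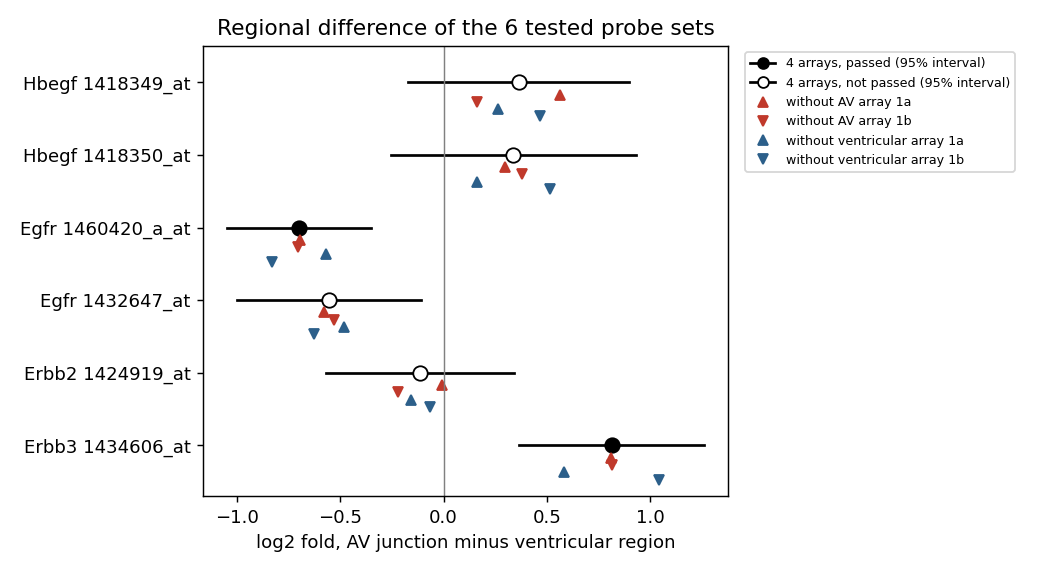
Log2 fold (AV junction minus ventricular region, of intensity plus 50) of the 6 tested member probe sets, with 95% intervals from limma. Filled circles passed and open circles did not, and triangles give the fold with 1 array left out. Erbb3 stays above 0 (0.58 to 1.04) and Egfr 1460420_a_at below it (−0.83 to −0.57) whichever array is left out.

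Ratios of 2 probe sets on the same array do not depend on the scaling between arrays, and were computed for the 6 pairs of Egfr, Erbb2, Erbb3 and Hbegf after their values had been seen. The level of such a ratio depends on the probes, and only its change between regions is of interest. The ratio of Erbb3 to Egfr was 1.23 and 1.21 on the AV arrays against 0.278 and 0.498 on the ventricular arrays, 3.28-fold higher in the AV junction. That of Hbegf to Egfr was 0.457 and 0.641 against 0.189 and 0.279, 2.36-fold higher, and that of Erbb3 to Erbb2 was 2.67 and 2.21 against 0.982 and 1.33, 2.12-fold higher. Those of Erbb2 to Egfr and Hbegf to Erbb2 were 1.55-fold and 1.53-fold higher. In the other direction, the ratio of Hbegf to Erbb3 was 0.372 and 0.528 against 0.679 and 0.559, a log2 change of −0.48. With 2 arrays against 2 the exact two-sided permutation test gave p = 0.333 for each pair (0.333 after adjustment over the 6), which is the smallest it can give.

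Among the first steps below the receptors the changes went both ways. Among 11 tested adaptors and early signalling genes, 3 rose, 1 fell and 7 did not pass, with a median log2 fold of 0.02. The shares over all 8410 genes tested were 8.47% higher and 6.54% lower, and their median was −0.06. The list median is not stable: it was 0.27 without ventricular array 1a (−0.05 over all genes) and 0.12 with quantile normalisation (−0.01). It was 0.43 and 0.46 with the values as deposited and with a floor of 300 (0.03 and 0.02 over all genes). With median scaling, which moves every gene by 0.16, it was 0.18. Sos2, which loads Ras with GTP, rose from 347 and 326 on the ventricular arrays to 582 and 555 on the AV arrays (log2 fold 0.68, adjusted p = 0.0214). Rasa1, which switches Ras off, rose by 0.54 (adjusted p = 0.0239), and Ptpn11, the phosphatase Shp2 that carries receptor signals to Ras, by 0.46 (adjusted p = 0.0186). Gab2, a docking protein, fell by 0.79, from 380 and 382 to 230 and 173 (adjusted p = 0.0314). The genes that rose thus include both an activator and an inhibitor of Ras. Sos2, Rasa1 and Ptpn11 did not pass whichever array was left out (adjusted p of up to 0.0918, 0.112 and 0.104), Gab2 without AV array 1b or either ventricular array (up to 0.121) and with median scaling (0.0602) or no floor (0.0828). With eBayes without trend Sos2, Rasa1, Ptpn11 and Gab2 all missed (0.0529, 0.0759, 0.0983 and 0.0584). A second probe set of Rasa1 gave 0.17. Erbin, which binds the tail of Erbb2, did not pass (−0.11, adjusted p = 0.564).

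Genes of the Ras-MAPK and PI3K cascades showed no called difference. Of 19 listed, 10 were tested, with 0 higher and 0 lower by limma, where 15.0% of all genes tested passed. Braf (log2 fold −0.62) and Araf (−0.43) were the 2 lower at an unadjusted p under 0.05, as were 1440 of all 8410 genes. The list median of the log2 fold was −0.07, and turned to 0.09 with median scaling (0.10 over all genes). It was 0.01 with the values as deposited and with a floor of 300 (0.03 and 0.02 over all genes). Nras, a Ras GTPase, read 1555 and 1593 on the AV arrays against 1422 and 1205 (0.26, adjusted p = 0.184). Map2k1, a kinase that activates ERK, read 1063 and 1117 against 959 and 1001 (0.15, adjusted p = 0.4). Dimmer probe sets gave log2 folds of 0.22 and 0.39 for Nras and 0.93 for Pik3ca, whose brightest probe set gave −0.004. Those of Map2k2 and Pdpk1 gave −0.45 and −0.24, against 0.02 and −0.11 on their brightest probe sets, and none of these passed.

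Of 7 tested genes that restrain ErbB signalling 1 rose and 0 fell by limma, so 14.3% passed against 15.0% of all genes tested. At an unadjusted p under 0.05 the list had 2 higher and 1 lower. Among all 8410 genes 1341 were higher and 1440 lower at that threshold. The median log2 fold was 0.16, with 0.02 without AV array 1a, 0.29 without AV array 1b and 0.31 with median scaling. Spred2, an inhibitor of the Ras-ERK route, read 737 and 836 on the AV arrays against 379 and 436 on the ventricular arrays. The regions did not overlap, and the log2 fold was 0.87 (adjusted p = 0.00972, and 0.0551 without ventricular array 1a). Errfi1, which binds and blocks the Egfr kinase, read 875 and 989 against 556 and 706 and narrowly missed (0.54, adjusted p = 0.0553). Lrig1, which promotes loss of ErbB receptors, gave −0.36 on its brightest probe set (adjusted p = 0.197). Its dimmer probe sets gave −0.92 and −0.65, and neither passed (adjusted p = 0.187 and 0.126). Spry2 gave 0.00 on its brightest probe set, while a dimmer one fell by 0.81 (adjusted p = 0.0363). Errfi1, Lrig1 and Spry2 were named after their values were seen.

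Genes that respond to ERK split. Among 9 tested genes, 3 rose, 2 fell and 4 did not pass. Of all genes tested 8.47% were higher and 6.54% lower, with a median log2 fold of −0.06. The list median was 0.42, and it dropped to 0.15 without AV array 1a and to 0.26 without ventricular array 1a. The immediate early transcription factors Egr1 and Fos fell. Egr1 read 976 and 929 on the AV arrays against 2574 and 2467 on the ventricular arrays (log2 fold −1.36, adjusted p = 5e-04), and Fos 365 and 344 against 729 and 866 (−1.06, adjusted p = 0.00476). In the other direction Phlda1 rose from 498 and 521 to 921 and 930.1 (0.80, adjusted p = 0.00735) and Ccnd1, cyclin D1, by 0.56 (adjusted p = 0.00959). Jun, a partner of Fos, rose by 0.51 (adjusted p = 0.025), with 0.36 on a second probe set. Egr1, Fos and Phlda1 passed with any 1 array left out, Ccnd1 missed without ventricular array 1a (adjusted p = 0.0608), and Jun whichever array was left out (up to 0.1). With eBayes without trend Ccnd1 and Jun missed (0.0688 and 0.0812). These genes answer to many signals besides ErbB receptors.

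**Figure D3:**
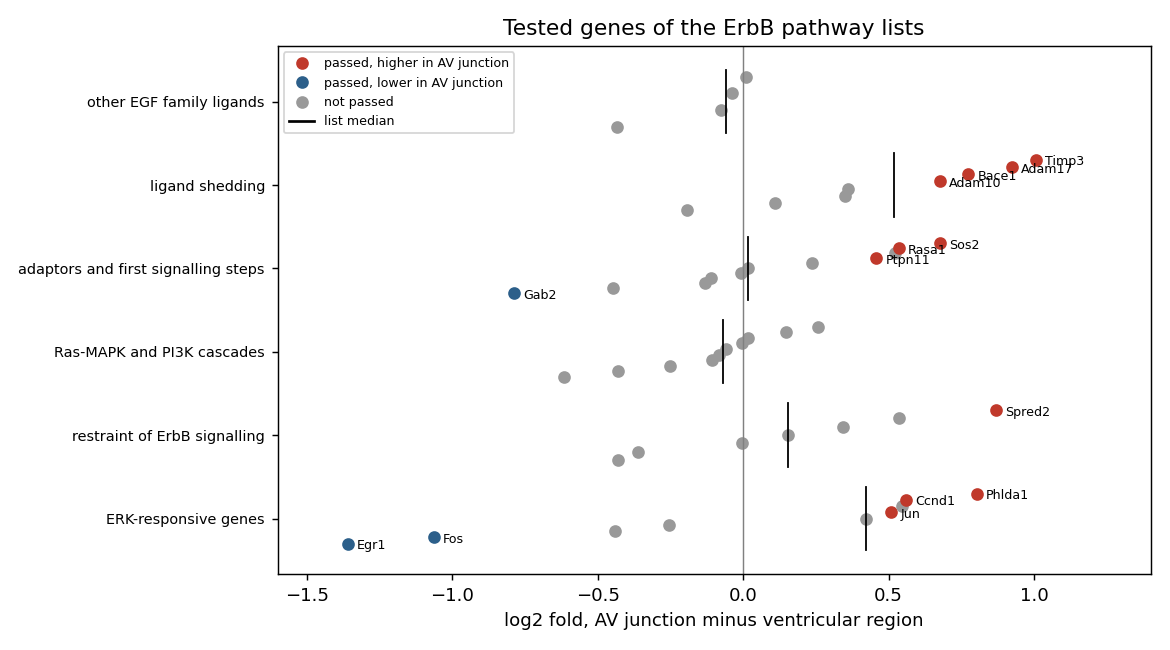
Log2 fold (AV junction minus ventricular region) of the 49 tested genes in 6 lists of the ErbB pathway, each gene by its brightest probe set. Red genes passed and were higher, blue genes passed and were lower, grey genes did not pass, and black bars mark list medians. The shedding list is shifted to the right (median 0.52), and Egr1 and Fos lie farthest to the left (−1.36 and −1.06).

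In all, 14 of the 49 pathway genes tested passed, 11 higher and 3 lower, or 28.6% against 15.0% of all genes tested. The lists were drawn up with earlier results of these data known, so this share is a description. It rests on the 4 arrays together: without AV array 1a 4 genes were higher, without AV array 1b 5, without ventricular array 1a 3 and without ventricular array 1b 4, and 4 of the 14 passed in every such fit (Adam10, Egr1, Fos and Phlda1). With eBayes without trend 4 were higher. Calls over all probe sets dropped too in these fits, from 970 higher to between 404 and 507 with 1 array left out and to 326 with eBayes without trend. With median scaling, which shifts the median of all genes by 0.16, 15 were higher and 2 lower.

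Probe sets of other genes with the profile over the 4 arrays most like that of a member were found by the distance between centred log2 profiles. For Erbb3 these were Itfg1 1435637_at (221 and 207 on the AV arrays, 72.8 and 118 on the ventricular arrays) and Cks1b 1448441_at (2001 and 1859 against 948 and 1279), at distances of 0.0824 and 0.0853. Brighter probe sets of both genes gave log2 folds of 0.14 for Itfg1 and −0.07 for Cks1b. For Egfr they were Prf1 and Lce1i (0.037 and 0.055), for Erbb2 Ndufa10 and Rps28 (0.0115 and 0.0156), and for Hbegf Fut8 and Notum (0.0392 and 0.0673). Only 4 probe sets lay within 0.1 of Erbb3 and 16 within 0.1 of Egfr, but 193 within 0.1 of Erbb2, whose profile is nearly flat. With 4 arrays such likeness is a description and no more.

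Markers of the tissues moved with region beside Erbb3 and Egfr. Over all genes tested 8.47% were higher and 6.54% lower. Of 10 cushion mesenchyme genes 8 were higher, with a summed intensity of 12846.5 to 14963 on the AV arrays and 4352 to 4428 on the ventricular arrays. Vcan was the brightest of them (means of 6584 and 2934). Dimmer probe sets gave log2 folds of 1.99 for Has2 and 0.83 and 1.03 for Vcan, which passed. Those of Msx1 (−0.65) and Tbx20 (0.18) did not pass. Of 7 tested genes of chamber and trabecular muscle 6 were lower (summed over 9 genes, 20853 to 21925 against 70777 to 73918), and Gja5 and Bmp10, defining genes of trabeculae, were at or below the controls on all 4 arrays. General cardiomyocyte genes (3 of 7 lower) differed less, at 84500.5 to 86009 against 107313 to 114675. Of these 3, Myh7 passed with any 1 array left out, whereas Tnnt2 and Tnni1 missed whichever array was left out (adjusted p of up to 0.112 and 0.195), with median scaling (0.11 and 0.202), Tnnt2 with quantile normalisation (0.138), and both with no floor (0.0764 and 0.108) and with eBayes without trend (0.107 and 0.148). Within the cardiomyocyte sum Myh7 had the largest difference, with means of 18930 on the AV arrays and 37370 on the ventricular arrays. Myh6 went the other way (25474 against 22428, log2 fold 0.18) and did not pass, and Ttn gave 0.03. Endocardial and endothelial genes went both ways (2 higher, 1 lower of 8, summed 3888 to 4345 against 3499 to 3558), with Pecam1 and Tie1 at or below the controls throughout. Of the 2 higher, Tek missed without ventricular array 1a (adjusted p = 0.0531) and with eBayes without trend (0.0512). Erbb3 is also a receptor of neural crest and Schwann cell precursors: Foxd3 was at or below the controls on all 4 arrays, Sox10 read 184 and 200.4 on the AV arrays and 189 on each ventricular array (log2 fold 0.02), and the 3 genes of this list with a probe set summed to 340 to 350 against 339 to 370. Epicardial genes did not pass (0 of 5; 1 lower at an unadjusted p under 0.05). Hepatic genes were higher (3 of 4 tested, summed 6798 to 7165 against 509 to 532; Alb missed without AV array 1a, adjusted p = 0.0554) and erythroid genes lower (3 of 5, summed 3388 to 3400 against 12006 to 12450.5) in the AV junction. Fewer cells of a type and less RNA per cell cannot be told apart in dissected tissue, and the part of these markers in the differences of Erbb3 and Egfr was not tested. The AV arrays were scanned before the ventricular arrays, so scan order and region cannot be told apart.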

How the data were processed

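The authors' deposited values are linear MAS5 intensities, 1 for each probe set on each array, per the submitters' processing notes; a version, detection calls and a genome build are not given in the sources used here. Of 22626 probe sets that are not controls, 20380 have 1 gene symbol in the platform annotation. Arrays were brought to a common 2% trimmed mean of 500. The 13403 probe sets whose mean reached 100 were tested on log2(intensity + 50) with limma 3.58.1 (lmFit, eBayes with trend) in R 4.3.3, region as the only term, and Benjamini-Hochberg adjustment over all of them, with 0.05 as threshold. Fitted fold differences include the added 50, and changes of ratios do not. A gene was represented by its brightest probe set. The brightest Bacillus subtilis control of each array served as background, and arrays carry no counts, so their number limits the precision. The fit was also run on arrays simulated from its own means and variances. This checks the code only, since the simulated noise follows the fitted model, and it says nothing about noise on the real arrays.

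Named were all members, in each pathway list up to 4 genes with the largest folds that passed or else the 2 brightest, and the 2 probe sets nearest to each tested member. Jun, Adam19, Erbin, Ereg, Nrg3, Foxd3, Sox10, Araf, Braf, Pik3ca, Map2k2 and Pdpk1 were named after their values were seen. So were marker genes at background and Has2, Msx1, Tbx20, Vcan, Myh6 and Ttn. Members and lists were chosen with earlier results of these data known. Alternatives were quantile normalisation, median scaling, the values as deposited, pseudocounts of 1 and 200, no floor or a floor of 300, eBayes without trend, a replicate block, leaving out arrays 1 at a time, and averaging a gene's probe sets. Figures used matplotlib 3.10.9 in Python 3.11.15.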

Additional observations from a re-analysis of the deposited data

How the results depend on the processing

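The directions of Erbb3, of Egfr on its 2 tested probe sets and of Hbegf on both of its own held under every alternative in which they were tested, and Erbb2 changed sign with quantile normalisation (0.014) and median scaling (0.045). On its brightest probe set Tgfa changed sign under the same 2 settings (0.015 and 0.082). Its fold ran from −0.21 to 0.060 with 1 array left out, above 0 only without AV array 1b. The members' counts of 1 higher and 1 lower became 0 and 0 with no floor and with eBayes without trend (limma; 1 higher and 2 lower at an unadjusted p under 0.05 in both). With 1 array left out each count lay between 0 and 1. Pathway genes higher numbered 4 with eBayes without trend and 3 to 5 with 1 array left out, against 11. Their median log2 fold of 0.018 was 0.088 with quantile normalisation, 0.18 with median scaling, 0.26 with the values as deposited, 0.25 with a floor of 300, and 0.019 to 0.14 with 1 array left out. The median of all genes tested was −0.058 in the main fit, −0.0073 with quantile normalisation and 0.10 with median scaling. It was 0.026 with the values as deposited and 0.024 with a floor of 300. Median scaling adds 0.16 to every log2 fold, and the causes of the other changes were not tested. In the values as deposited and with a floor of 300 only 2 member probe sets are bright enough to be tested. Deviations of arrays with the same letter correlated at 0.06 across probe sets, and the sources do not pair them. With the replicate block the pathway counts were 12 higher and 3 lower, and Erbb3 and Egfr kept their calls (adjusted p = 0.0117 and 0.0108). Signal over background limits Erbb4, the second probe set of Erbb3 and 3 of the 5 of Egfr.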
